A study of Mus musculus with 2 samples.

Results

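Chondroitin sulfate and dermatan sulfate are long sugar chains that hang from core proteins such as decorin and versican in the extracellular matrix. The genes described here encode 10 enzymes that build or modify these chains: *Csgalnact1*, *Chsy1*, *Chsy3*, *Chpf*, *Dse*, *Chst11*, *Chst12*, *Chst13*, *Chst3* and *Chst15*. They were picked by gene name, all 10 were on the array, and 13 of its 39429 probes and 10 of its 29924 gene names belong to them. The set was chosen by a reading of the measured values of the comparison reported below, so the values of these genes are given as a description and carry no test.

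The arrays compared ureters of newborn (P0) wildtype NMRI mice, dissected and kept for 18 h on membranes in serum-containing medium with 5 µM IWP-2 or with its solvent DMSO (1:1000). IWP-2 inhibits PORCN, the acyltransferase that WNT ligands need for secretion, so the comparison asks which transcripts depend on WNT signaling in the ureter after birth. There were 2 arrays, each with a control pool and an IWP-2 pool of ureters from pups of the same sex, female in replicate 1 and male in replicate 2. The IWP-2 RNA carried AlexaFluor647 (red) in replicate 1 and AlexaFluor555 (green) in replicate 2, so sex and dye orientation cannot be told apart. Each channel held the RNA of 1 pool of whole ureters, and the number of arrays limits the precision of every value.

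The chains are begun on a tetrasaccharide linker, which heparan sulfate shares. CSGALNACT1 adds the first N-acetylgalactosamine, and the chondroitin synthases with their partner CHPF then extend the chain by alternating glucuronic acid and N-acetylgalactosamine. DSE turns glucuronic acid into iduronic acid, which makes the chain dermatan sulfate. Sulfotransferases place sulfate at set positions: CHST11, CHST12 and CHST13 at the 4-O position of N-acetylgalactosamine, CHST3 at its 6-O position, and CHST15 at the 6-O position of residues already sulfated at 4-O. The pattern of sulfate governs how the chains bind growth factors and other matrix proteins, and in muscular tubes such as the ureter they form part of the matrix of the mesenchymal layers.

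Every array value below is the signal of a 60-base probe, and the probes of the genes on which the results turn are shown by their first 30 bases, 5′ to 3′. Those of the 4-O sulfotransferases are given because 1 gene of this trio differed by more than 1.5-fold in both arrays and the others did not. Those of *Chsy1* are given because the pair overlaps by 44 bases, with the shared bases within these stretches in capitals, so the 2 probes read nearly the same part of the transcript and are not independent of each other.
Chst11: cttctgagcatgctcagtaagcatatggac
Chst12: tattcatggaacactgtgttaaatactgtt
Chst13, brighter probe: tggtcacactcattccgactgggtagggta
Chst13, dimmer probe: aataaagctctgggctccagctggttcggt
Chsy1, brighter probe: gcttatttgtaaatagCCTATTGCACACTC
Chsy1, dimmer probe: CCTATTGCACACTCgaacaaataaaccagt

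By the array design, which uses build mm9, the *Chst11* probe lies at chr10:82658397-82658456 on the plus strand and the *Chst12* probe at chr5:141001089-141001148 on the plus strand. The *Chst13* probes lie at chr6:90258780-90258839 and chr6:90268268-90268327 on the minus strand, and the *Chsy1* probes at chr7:73318609-73318668 and chr7:73318625-73318684 on the plus strand. Whether a probe covers coding sequence or an untranslated region was not analysed here. None of the 13 probes shared a stretch of 20 bases with a probe of a gene outside the set (0 of 13, both strands read). This search did not compare the 13 probes with each other. Their GC content ranged from 21.7% (*Chst12*) to 55.0% (the dimmer *Chst13* probe). Signals of different probes depend on their sequences, so levels are compared only between pools for the same probe and not between genes. The arrays were not put on a common scale, so a gap between pools of different arrays can also hold array and dye. The fold within an array is the paired comparison.

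The inhibitor check was *Axin2*, a direct target of canonical WNT signaling that dampens the pathway. Its signal was 181 in control and 42.2 in IWP-2-treated ureters in replicate 1, and 154 and 46.7 in replicate 2 (mean log2 fold change −1.91, limma adjusted p = 0.000826). *Porcn*, which encodes the target itself, gave 1791 and 1696 in replicate 1 and 1920 and 1915 in replicate 2. Markers of the tissue were bright, with summed signals of 73370 to 84890 for 6 smooth muscle genes and 84830 to 111500 for 6 urothelium genes. The kidney tubule markers *Umod* and *Slc12a1* lay at the floor of 15 in all 4 channels. *Aqp2* reached at most 15.5, and *Slc34a1* lay at the floor in replicate 1 and gave 23.1 in control and 29.45 in IWP-2-treated ureters of replicate 2.

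*Chst11*, the 4-O sulfotransferase that acts mainly on chondroitin, differed most between control and IWP-2-treated ureters. Its probe gave a signal of 343 in control and 209 in IWP-2-treated ureters of replicate 1. In replicate 2 the signals were 378 and 220.1. Both control pools lay above both IWP-2 pools, and the signal was 1.64-fold lower with IWP-2 in the female array and 1.72-fold lower in the male array. The log2 fold change was −0.71 and −0.78, with a mean of −0.75 ± 0.047 (SD, n = 2 arrays).

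The spots of this probe gave a narrow range. All 4 spots of replicate 1 were kept and lay between −0.74 and −0.70 on the log2 scale. In replicate 2, 1 spot had an outlier flag and was left out, and the other 3 lay between −0.81 and −0.77. Over both arrays the lowest control spot (330.4) was brighter than the highest IWP-2 spot (221.5), and all 7 spots were well above background in both channels. The spread within an array is technical, since its spots hold the same RNA.

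**Figure D1:**
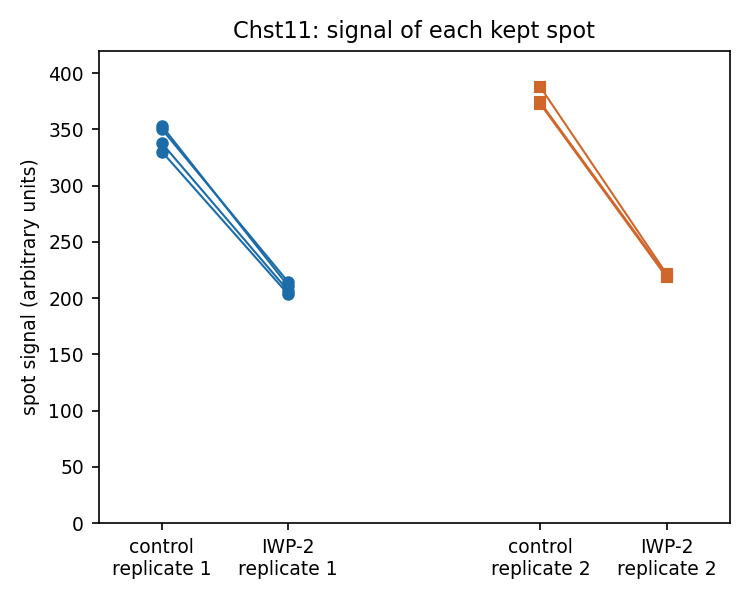
Signal of each kept spot of the Chst11 probe (y axis, linear, arbitrary units) in the control and IWP-2 channel of replicate 1 (circles, 4 spots) and replicate 2 (squares, 3 spots), with lines joining the channels of a spot. Every control spot lies at 330.4 or above and every IWP-2 spot at 221.5 or below.

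Tests covered 14336 genes, those whose signal averaged over 100 in either condition. Among them, the mean log2 fold change of *Chst11* had rank 43 from the lowest, so 0.300% of them lay at or below it. It was the only 1 of the 10 enzymes past a filter that asks for a control signal above 100 and a fold of 1.5 or more in each array. This filter kept 51 of 14051 genes as lower (0.363%) and 11 as higher (0.0783%), and of the 8 enzymes with control signals above 100 in both arrays it kept 1 as lower and 0 as higher. These counts describe values that were known when the set was chosen.

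The other 4-O sulfotransferases gave no such difference. *Chst12*, which encodes a second enzyme for this position, had signals of 789 in control and 759.8 in IWP-2-treated ureters in replicate 1, and of 763 and 751 in replicate 2. Its log2 fold changes of −0.055 and −0.024 averaged −0.039 ± 0.022 (SD, n = 2). The pools of *Chst12* overlapped, as the control of replicate 2 lay between the pools of replicate 1.

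*Chst13* encodes the third 4-O sulfotransferase and was hardly measurable. Its brighter probe lay at the floor of 15 in 3 channels and at 16.8 in the IWP-2 channel of replicate 1, although all its spots were called well above background. Before the floor was set, its spots gave 7.64 to 11.0 in control and 16.1 to 18.7 in IWP-2-treated ureters of replicate 1, against 9.04 to 12.1 and 10.4 to 12.24 in replicate 2. So the difference seen in the female array had no like in the male array, where the spots of both channels overlapped. The dimmer probe was at the floor throughout, and *Chst13* was the 1 enzyme too dim to count among the genes tested.

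The sulfotransferases for other positions were close to their controls. *Chst3*, the 6-O sulfotransferase, gave 259.9 and 238 in control and IWP-2-treated ureters of replicate 1 and 214 and 207 in replicate 2 (mean log2 fold change −0.090 ± 0.055, SD). *Chst15*, whose product makes the doubly sulfated units, gave 172 and 161 in replicate 1 and 160.1 and 157 in replicate 2 (mean −0.063 ± 0.044, SD). The IWP-2 signal was the lower one in each array for both genes. The 2 control pools differed by more, but they lay on different arrays with different dyes. A second, dimmer *Chst15* probe had the opposite sign, with 36.8 and 37.3 in replicate 1 and 36.7 and 37.5 in replicate 2 (mean 0.025).

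The enzymes that start and extend the chain gave no common direction. *Csgalnact1*, which starts the chain, had signals of 637 in control and 543 in IWP-2-treated ureters in replicate 1, and of 628 and 644 in replicate 2. Its log2 fold changes, −0.23 and 0.036, differed in sign, and the IWP-2 pool of replicate 1 stood below the other 3 pools. *Chsy1*, a chondroitin synthase, gave 7713 and 7679 in replicate 1 and 6910 and 8000 in replicate 2. Its brighter probe thus had log2 fold changes of −0.006 and 0.21, and the overlapping probe 0.006 and 0.17, so both read a difference in the male array alone.

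*Chsy3*, a further synthase, lay near the limit of 100, with 113 and 109.6 in replicate 1 and 87.7 and 83.2 in replicate 2. Here the distance between the arrays was larger than that between the treatments, whose log2 fold changes were −0.042 and −0.076. *Chpf*, which encodes the partner that the synthases need for chain extension, gave 2931 and 2692 in replicate 1 and 2469 and 2410 in replicate 2 (mean log2 fold change −0.079 ± 0.062, SD). It was lower with IWP-2 in each array, and the control pools again differed by more between the arrays.

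*Dse*, the epimerase that makes dermatan sulfate, was nearly level, with 312 in control and 327 in IWP-2-treated ureters of replicate 1 and 309 and 303 in replicate 2. Its log2 fold changes were 0.067 and −0.028, and the IWP-2 pools lay on either side of both control pools.

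**Figure D2:**
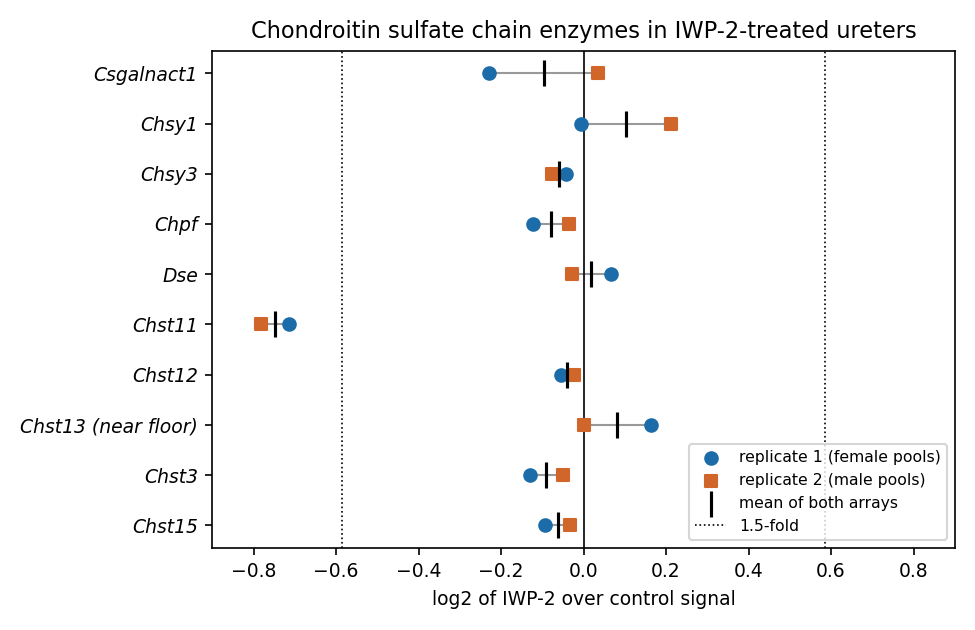
Log2 of IWP-2 over control signal (x axis) of the 10 enzymes (y axis) in replicate 1 (circles) and replicate 2 (squares), with the mean of both as a bar and 1.5-fold as dotted lines. Chst11 lies past the 1.5-fold line in both arrays (−0.71 and −0.78), and the means of the other 9 lie between −0.097 and 0.10.

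**Figure D3:**
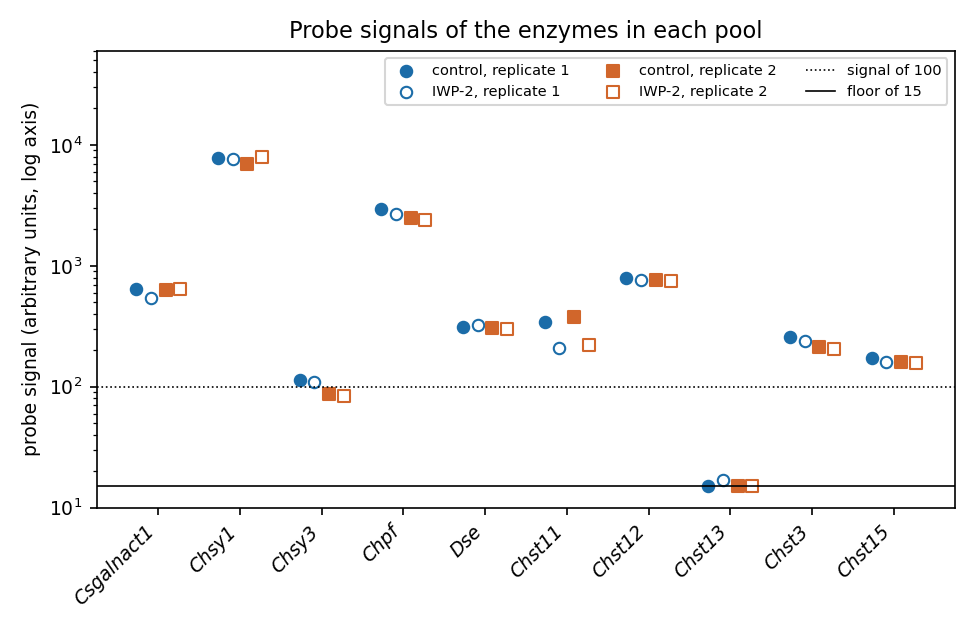
Probe signal (y axis, log scale, arbitrary units) of each enzyme in the 4 pools, control filled and IWP-2 open, replicate 1 as circles and replicate 2 as squares, with the floor of 15 and the limit of 100 as lines. Heights are to be read within a gene only: for Chst11 both open symbols (209 and 220.1) lie below both filled ones (343 and 378).

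Taking the 10 enzymes as a group, 6 were lower with IWP-2 in both arrays, 0 were higher in both, 3 had opposite signs, and *Chst13* was at the floor in replicate 2. Of all genes tested, 29.1% were lower and 25.7% higher in both arrays. The median log2 fold change of the 10 was −0.061, with −0.074 in replicate 1 and −0.030 in replicate 2, beside −0.006 over all genes tested. Without *Chst11*, the means ranged from −0.097 (*Csgalnact1*) to 0.10 (*Chsy1*). For comparison, the log2 fold changes of all genes tested had an SD of 0.22 in replicate 1 and 0.17 in replicate 2.

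The other genes of glycosaminoglycan metabolism were taken as 8 lists with 95 genes, of which 67 had a mean signal above 100 and were tested with limma over all 14336 genes. Limma called 0 of the 67 at an adjusted p under 0.05, and the fold filter kept 0. An unadjusted p under 0.05 was found for 13 of the 67, beside 1851 of all 14336 genes tested. With replicate 1 alone the filter kept 1, *Sulf1*. Over all genes tested limma called 0.886% lower and 0.363% higher. The median log2 fold change of the 67 was −0.006, the same as over all genes tested. The smallest absolute mean among the genes that limma called was 0.41, and 1 of the 67 genes exceeded it.

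Closest to the enzymes above are the 6 further chain enzymes. *Csgalnact2*, the second initiating enzyme, had a mean log2 fold change of −0.086, *Chpf2* one of −0.010, and *Dsel*, a second epimerase, one of −0.006. *Chst7*, another 6-O sulfotransferase, gave 0.016. *Chst14*, which sulfates dermatan at 4-O, had the largest value among those tested, with 1346 and 1180 in replicate 1 and 1306 and 1276 in replicate 2 (mean −0.11, limma adjusted p = 0.703). All 5 lay closer to 0 than the SD of 0.17 over the tested genes of replicate 2.

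*Ust*, which encodes the 2-O sulfotransferase for uronic acids, was too dim to be tested. Its signals were 78.7 in control and 55.9 in IWP-2-treated ureters of replicate 1 and 67.4 and 54.6 in replicate 2. The log2 fold changes were −0.49 and −0.31. Other genes of the lists that were too dim to be tested lay on both sides of 0, such as *Ndst3* (−0.47 and −0.15) and *Spock3* (0.063 and 0.38). *Ust* was singled out after its values had been seen.

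Upstream of the chain enzymes, 6 of 7 enzymes of the linker were tested, with a median of 0.002. The largest mean was that of *Fam20b*, a kinase that phosphorylates the linker xylose (0.062, limma adjusted p = 0.876). *Xylt1* lay at the floor in all channels. Of the 13 genes for the supply of sulfate and sugar donors, 12 were tested, with a median of 0.026. *Slc35d2*, a nucleotide sugar transporter of the Golgi, stood out in replicate 1 alone (0.36 and 0.003, limma adjusted p = 0.566).

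The core proteins that carry the chains lay on both sides of 0. Of 18 genes, 11 were tested, 4 of them lower and 4 higher in both arrays. An unadjusted p under 0.05 was found for 4, beside 1851 of all 14336 genes tested. *Epyc*, a small leucine-rich proteoglycan, had the largest mean, with 622 and 805 in replicate 1 and 589 and 673 in replicate 2 (0.28, limma adjusted p = 0.161). *Dcn*, decorin, gave 31360 and 27290 in replicate 1 and 28030 and 27520 in replicate 2 (−0.11, limma adjusted p = 0.703). *Vcan*, the large proteoglycan versican, gave 4193 and 3377 and then 3885 and 3592 (−0.21, limma adjusted p = 0.304). *Acan*, *Bcan*, *Ncan* and *Spock1* lay at the floor in all channels.

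Among 9 genes for the breakdown of the chains, 8 were tested, with a median of 0.006. *Arsb*, the lysosomal enzyme that removes 4-O sulfate, had the largest mean (−0.19, limma adjusted p = 0.331), with 213 and 177 in replicate 1 and 188 and 174 in replicate 2. *Hyal4*, a hyaluronidase that acts on chondroitin, lay at the floor in all channels.

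Heparan sulfate uses the same linker, and its 23 chain enzymes served as the nearest comparison. Of these, 15 were tested, with a median of 0.001, 4 lower and 4 higher in both arrays. *Sulf1*, an extracellular sulfatase that removes 6-O sulfate from heparan sulfate, had the largest mean of all 67 genes, with signals of 7173 and 4574 in replicate 1 and 5357 and 4496 in replicate 2. Its log2 fold changes of −0.65 and −0.25 differed more between arrays than those of *Chst11*, and its mean of −0.45 did not pass the test (limma adjusted p = 0.119).

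Of 11 sulfotransferases for other sugars, 4 were tested, with a median of −0.14 and the largest mean for *Gal3st4*, a galactose 3-O sulfotransferase (−0.27, limma adjusted p = 0.154). Of 8 genes for hyaluronan, the related chain that carries no sulfate, 6 were tested, with a median of −0.099. An unadjusted p under 0.05 was found for 3 of the 6, beside 1851 of all 14336 genes tested. In both arrays 5 of the 6 were lower and 1 higher, beside 29.1% lower and 25.7% higher over all genes tested. The higher 1 was *Cd44*, a hyaluronan receptor, with 1244 and 1577 in replicate 1 and 1366 and 1610 in replicate 2 (0.29, limma adjusted p = 0.134).

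**Figure D4:**
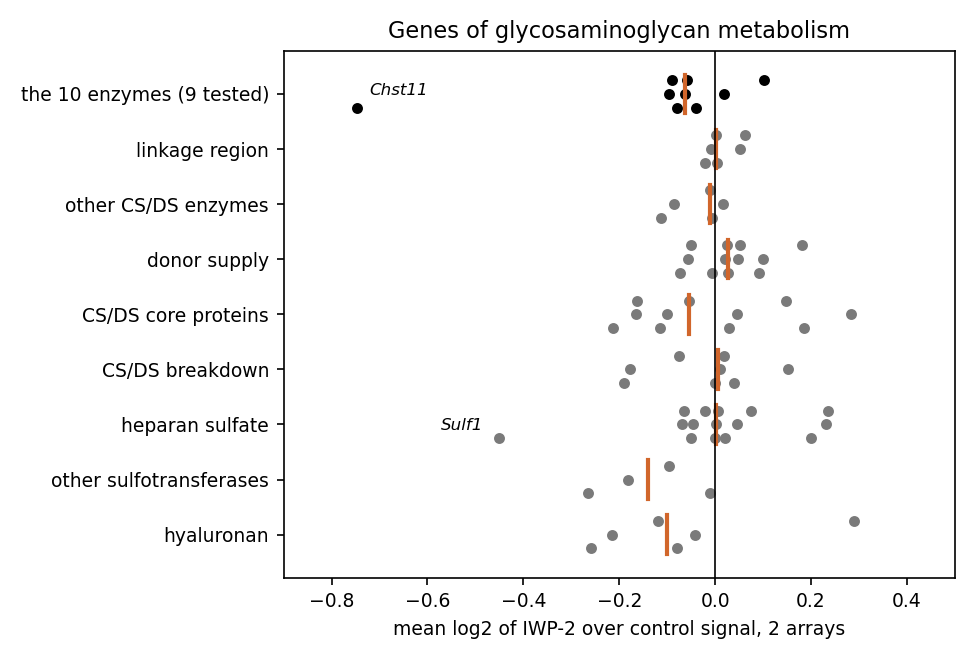
Mean log2 of IWP-2 over control signal over 2 arrays (x axis) of each tested gene (1 point) in the set of 10 enzymes and the 8 lists (y axis, points spread vertically for sight only), with the list median as a bar. Chst11 lies at −0.75 and Sulf1 at −0.45, while the list medians lie between −0.14 and 0.026.

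Which genes had a pair of log2 fold changes most like that of *Chst11* was read from the distance over the 2 arrays among all genes tested. The 5 nearest were *Csrp2* (−0.74 and −0.79, distance 0.027), *Dio3* (−0.69 and −0.79, 0.029), *Notum* (−0.67 and −0.72, 0.076), *Tnfaip6* (−0.76 and −0.84, 0.078) and *Npy2r* (−0.75 and −0.70, 0.088). CSRP2 is a LIM domain protein, DIO3 inactivates thyroid hormone, and NOTUM removes the lipid from WNT ligands. TNFAIP6 binds hyaluronan, and NPY2R is a neuropeptide Y receptor. With 2 arrays such likeness rests on 2 values a gene.

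The arrays read whole ureters, in which fewer cells of a type and less RNA per cell cannot be told apart. Beside *Chst11*, the lamina propria marker *Aldh1a2*, a retinoic acid synthesis enzyme, was lower (1688 and 995 in replicate 1, 1456 and 1026 in replicate 2, limma adjusted p = 0.0281), without passing the fold filter. The other lamina propria markers did not share this direction. *Foxf1* was higher in both arrays (log2 fold changes 0.20 and 0.54, limma adjusted p = 0.149), and *Bmp4* had opposite signs (−0.10 and 0.18, limma adjusted p = 0.978). Neither passed the test. The summed signal of 6 urothelium markers was higher with IWP-2, at 84830 and 110800 in replicate 1 and 103600 and 111500 in replicate 2, with 5 of 6 higher in both arrays. Limma called 0 of these 6, and 4 had an unadjusted p under 0.05, beside 1851 of all 14336 genes tested.

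The 6 smooth muscle markers summed to 84890 in control and 84440 in IWP-2-treated ureters of replicate 1 and to 73370 and 84540 in replicate 2, with 3 of 6 higher in both arrays. The 5 macrophage markers summed to 5068 and 5172 in replicate 1 and to 5158 and 5523 in replicate 2. Of these, 4 were tested, 3 of them higher in both arrays and 1 lower. The 5 endothelium markers summed to 13880 and 12600 in replicate 1 and to 11790 and 12330 in replicate 2, with 2 higher and 1 lower in both arrays. Limma called 0 genes of these 3 lists, and 1 in each had an unadjusted p under 0.05. The part of these cell types in the *Chst11* value was not tested.

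*Chst11* is best known from cartilage, and cartilage markers were mostly dim. *Comp* and *Matn3* lay at the floor in all channels. *Col2a1*, the main cartilage collagen, gave 35.8 and 18.4 in replicate 1 and 19.5 and 15 in replicate 2. The summed signal of the 6 cartilage markers, 2360 and 2211 in replicate 1 and 1555 and 1680 in replicate 2, came mostly from *Col9a1*. Summed signals of 5 Schwann cell and neuron markers were 5685 and 3547 in replicate 1 and 4820 and 5519 in replicate 2, so they were lower with IWP-2 in the female array alone. The part of any of these markers in the result was not tested.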

How the data were processed

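Total RNA from pools of cultured ureters was amplified, labelled with AlexaFluor555 or AlexaFluor647 and hybridised to 2 two-colour Agilent arrays by the authors. The deposited scanner files hold background-subtracted, dye-normalized signal intensities from Feature Extraction (12.2.0.7 in the file headers, 10.7.3.1 in the submitters' processing notes), and the mean and background intensities used for the normexp alternative. The authors' files also hold the log10 ratio of red over green, used to check the direction: it equalled that of the processed signals within 0.001 for 82.8% and 83.1% of spots. The deposited series table holds a score per probe, read as a signed fold of IWP-2 over control with 1 decimal (column median 1 in both arrays, correlation with the log2 fold changes here 0.94 and 0.923 across genes), and its centring is not stated. Further columns of per-sample values numbered 0.

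The 17263 control spots were removed, as were those flagged as outliers (3.32% and 3.22% of 157716). Of all spots, 0 were saturated, and signals were normalized by loess within each array in limma 3.58.1 (R 4.3.3). Signals were not scaled between arrays, except in the alternative without pairing by array. The 4 spots of a probe were averaged, floored at 15 and expressed as log2, and the brightest probe stood for its gene. Genes with a mean signal above 100 in either condition were tested with lmFit and eBayes against 0 with Benjamini-Hochberg adjustment at 0.05. The fold filter took the study's limits on control intensity (100) and fold (1.5) and required both in each array, which the study does not state. Control and treated pool of a replicate share an array and are paired by construction. The 10 enzymes and all gene lists were chosen with earlier results of these data known. Besides the 10 enzymes, genes were named by the largest absolute mean in each list and the 5 nearest to *Chst11*. *Ust*, *Dcn*, *Vcan* and the untested or dim genes were added after their values were seen, and the 6 further chain enzymes were given in full. Cell markers were fixed as lists, of which part of the kidney list is not reported here. The steps were tested on simulated data. Alternatives covered normalization, background, flags, floor, probe summary, dim-gene filter, thresholds, source and pairing.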

Additional observations from a re-analysis of the deposited data

Results flagged for a closer look

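*Csgalnact1* had a log2 fold change of −0.23 for the female pools and 0.036 for the male pools, and all its spots had the sign of their array. The difference, replicate 2 minus replicate 1, was 0.27. *Dse* had the opposite order, with 0.067 for female and −0.028 for male pools and a difference of −0.095. For scale, the log2 fold changes of single arrays had an SD of 0.17 to 0.22 over all genes tested. The spread of differences between the arrays was not computed. Neither difference was tested, as there was 1 array per sex, and sex and dye orientation cannot be told apart.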

How the results depend on the processing

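The log2 fold change of *Chst11* stayed below 0 in 13 of 13 alternatives, between −0.78 and −0.70. With normexp it was −0.70, and with 1 array alone −0.71 (replicate 1) or −0.78 (replicate 2). A fold threshold of 2 left 0 of the 10 enzymes past the filter, and 19 genes in all (19 lower, 0 higher) in place of 62. Median centring in place of loess moved the median of all genes tested from −0.006 to 0.036, that of the 10 enzymes from −0.061 to −0.022, and the enzymes lower in both arrays from 6 to 3. By the values of the deposited series table, 1 enzyme was lower in both arrays. A fold that its 1 decimal rounds to 1 has a log2 of 0 and does not count as lower. The mean log2 fold change there was 0 for *Chst12*, *Chsy3* and *Dse*. With 1 array alone 7 to 8 were lower, with medians of −0.074 to −0.030. Of 130 alternative values of single enzymes 10 moved by more than the SD of the arrays, 4 of them for *Chst13* (up to 0.44 with a floor of 1).

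Limma's 179 calls (127 lower, 52 higher, 70.9% lower) became 117 without loess, 193 with median centring (108 and 85, 56.0% lower), 402 with normexp (248 and 154, 61.7% lower), 67 with the mean over probes, 1321 in the series table (698 and 623, 52.8% lower) and 8 with no replicate block, that is, without pairing by array. It called 0 genes with no filter on dim genes (2029 at an unadjusted p under 0.05) and 0 with a filter on signals well above background (2132). The filter kept 114 genes (89 lower, 25 higher) in both of these settings, and 103 to 272 with 1 array alone. In the other glycosaminoglycan genes limma called 0 under the settings run on the scanner files. Under these settings 5 to 17 had an unadjusted p under 0.05, beside 965 to 2531 of all genes tested. Limma called 4 in the series table (*Cspg4*, *Gal3st4*, *Hs3st1* and *Slc35b2*), whose values carry 1 decimal. The causes of these differences were not tested.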

Other observations

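Among genes of the neighbouring lists that the text has not described, 3 heparan sulfate enzymes were higher with IWP-2 in both arrays at an unadjusted p under 0.05, without passing the test over all genes. Such a p was found for 4 of the 15 tested genes of that list, with *Sulf1* lower, beside 1851 of all 14336 genes tested. *Extl1*, a glycosyltransferase of the exostosin family, gave 198 in control and 258 in IWP-2-treated ureters in replicate 1, and 224 and 236 in replicate 2 (limma adjusted p = 0.345). The 3-O sulfotransferases *Hs3st1* (mean log2 fold change 0.24, limma adjusted p = 0.213) and *Hs3st6* (0.20, limma adjusted p = 0.33) were the other higher ones. Of the hyaluronan synthases, *Has2* gave 1632 and 1330 in replicate 1 and 1545 and 1407 in replicate 2 (−0.21, limma adjusted p = 0.269), and *Has1* gave 131 and 119 and then 96.3 and 73.6 (−0.26, limma adjusted p = 0.238). *Srgn*, the proteoglycan serglycin of blood cells, had a mean of 0.19 (limma adjusted p = 0.364), and *Cspg4*, a surface proteoglycan of pericytes and muscle cells, one of −0.16 (limma adjusted p = 0.375). These genes were picked after their values were seen.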
